A study of Homo sapiens with 4 samples.

Results

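The interferon-stimulated effector genes are the genes whose products carry out the response of a cell to interferon, as opposed to the STAT and IRF factors that switch them on. They were read here as a list of 50 named genes in ES-2, an established ovarian clear cell carcinoma line that expresses the YAP1-MAML2 (YM) fusion. The deposited tables hold 19626 genes, and 49 of the 50 members had a row. The level of RSAD2 was not analysed here, and it enters the promoter counts alone. Of the 49, 41 had an RPKM (reads per kilobase of transcript, scaled to the mapped reads of the library) above 1 in at least 1 library and were tested among 12157 genes in all.

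The cells received a pLKO.1 lentivirus with either a non-targeting shRNA (shCtl) or shM2-3, an shRNA against MAML2 that also acts on the fusion transcript, with 2 biological replicates each. All 4 libraries come from 1 cell line, a single targeting shRNA was used, and all carry the fusion and the lentiviral vector. By the labels, virus was applied for 8 h on consecutive days and RNA was isolated 96 h after the first infection, whereas the study's methods give a shorter time. Totals were 20051083 and 20423873 estimated counts in shCtl and 23978660 and 21813798 in shM2-3, without strand information. MAML2 itself had 8.61 and 8.26 RPKM under shCtl and 3.11 and 2.998 under shM2-3, a log2 fold change of -1.40 ± 0.0688 (SE) (adjusted p = 5.18e-10, edgeR quasi-likelihood F test, Benjamini-Hochberg adjustment). Reads of the MAML2 part of the fusion are counted on MAML2 too. Among markers of the labelled clear cell carcinoma, the keratin genes KRT7, KRT8 and KRT18 were abundant, with a summed marker level of 637 RPKM in both shCtl libraries and between 313 and 316 in shM2-3. The clear cell marker NAPSA had at most 13 counts in any library, and EPCAM and PAX8 at most 6 and 22.

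Interferons bind receptors on the cell surface, whose JAK kinases phosphorylate STAT factors. After type I interferon these form a complex with IRF9 that binds the interferon-stimulated response element (ISRE) in promoters, while the GAS element is bound after interferon gamma. IRF1 binds sites of the ISRE type as well. The effectors made in answer bind or cut foreign RNA, hold virus at membranes, tag proteins with ubiquitin-like modifiers or turn down translation, and some tumour cell lines express part of the set without added interferon.

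A gene was called when the adjusted p was 0.05 or less and the fold change was 2 or more. In shM2-3 cells 21 of the 41 tested members were called higher, where 9.24% of all tested genes were, and 0 were called lower, where 8.93% of all tested genes were. DESeq2 also called 0 members lower, and 4 members were lower at an unadjusted p under 0.05 in edgeR. Without the fold limit, at an adjusted p up to 0.05, 32 members were higher (36.3% of tested genes) and 4 were lower (36.4%), while 5 did not pass (edgeR quasi-likelihood F test). The median log2 fold change was 1.02 over the 41 members and -0.0037 over all tested genes. In bulk RNA, a change in the share of cells that express a gene and a change of its RNA per cell cannot be told apart. Of the 41, 9 had an RPKM above 1 in shM2-3 alone, so that they entered the test through the group in which they were high, and 8 of these were called. The other 13 called members were among the 32 that passed in both groups, whose median was 0.67. Shares of all tested genes split in the same way were not computed, so neither count is read against the 9.24%. In a fit without the filter, over all 49 members, 23 were called higher (8.45% of 19626 genes) and 1 lower (7.76%), with a median of 0.99 against 0.02 for all genes. By RPKM alone, the groups of 37 of the 49 members did not overlap and shM2-3 was higher (33.2% of all genes), those of 8 did not overlap and shM2-3 was lower (36.4%), and those of 4 overlapped. Among tested genes alone these shares were 38.9% and 47.1%, so groups without overlap were common with 2 libraries each. The summed RPKM of the 49 members was between 607 and 634 in shCtl and between 905 and 910 in shM2-3. IFITM3, LGALS3BP and IFITM2 had the highest levels in that sum.

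**Figure D1:**
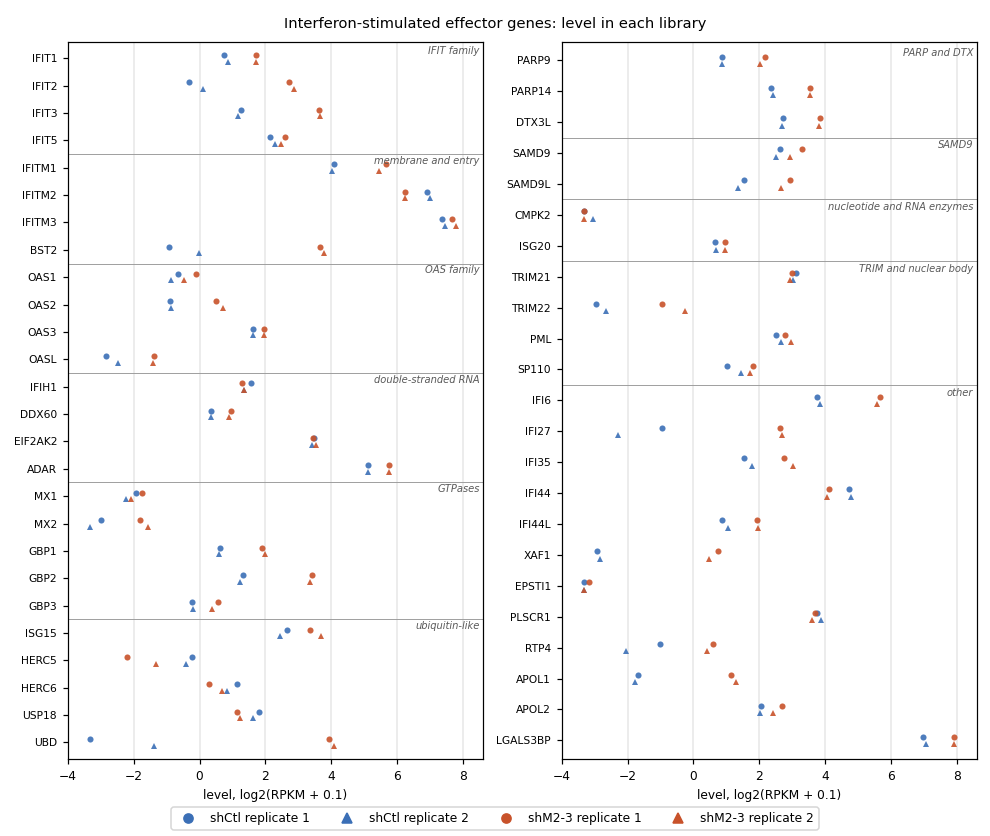
Level of each of the 49 effector genes in each library as log2(RPKM + 0.1), grouped by role, with shCtl in blue, shM2-3 in orange and the shape giving the replicate. UBD, XAF1, IFI27 and BST2 have the widest gaps between the groups, whereas EIF2AK2, MX1, CMPK2 and EPSTI1 overlap.

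The spread among members was wide. UBD had the highest log2 fold change, 6.82, and IFITM2 the lowest, -0.65. Over the 32 members with an RPKM above 1 in both groups, Spearman's rho between the mean shCtl RPKM and the log2 fold change was -0.283. This is a correlation across genes of the same 4 libraries, the control level enters both measures, and no trend is read from it.

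**Figure D2:**
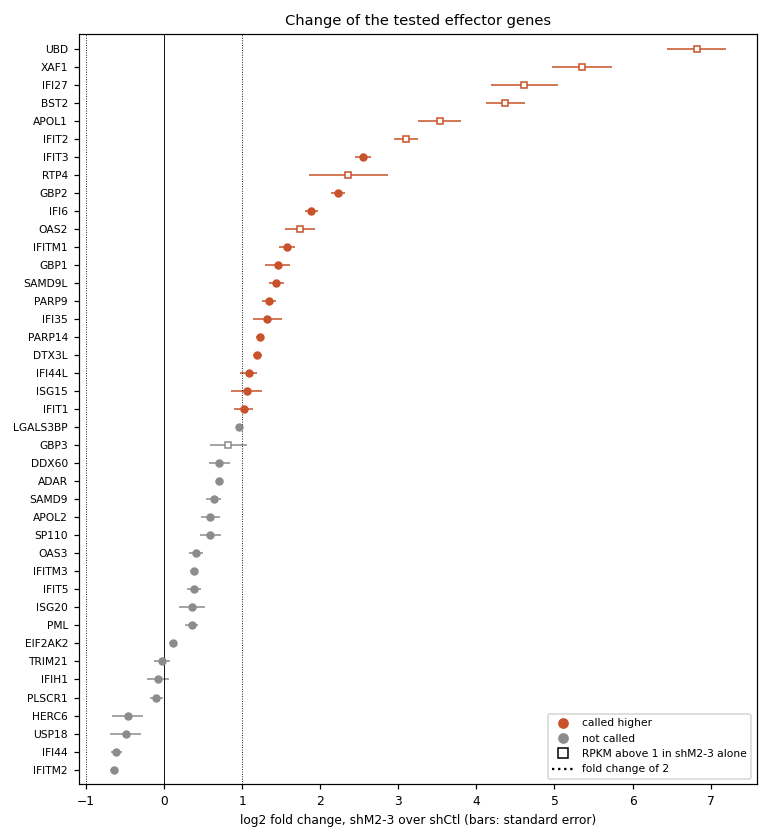
Log2 fold change of shM2-3 over shCtl for the 41 tested members with standard errors, in order, with called genes in orange and open squares for genes that passed the RPKM filter in shM2-3 alone. The values run from -0.65 for IFITM2 to 6.82 for UBD, and the 6 highest are all open squares.

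Promoters were read from RefSeq (GRCh38.p14), as 250 bases before and 50 after each annotated start, on both strands. The table held 53 promoters of 39 members. The ISRE core searched was GAAA, 2 free bases, and GAAA again, and the GAS core was TTCNNNGAA. The ISRE core was found for 30 of the 39 genes (76.9%), against 4.38% of all 27305 genes in the table. The GAS core was found for 12 of the 39 (30.8%), against 9.38% of all genes, and 9 members held both. With the shorter ISRE form GAAANNGAA the shares were 79.5% and 9.86%. The members were listed as interferon-stimulated genes, so a high share is what the choice of the list brings. Of 26 tested members with an ISRE match 13 were called higher, and of 7 tested members without one 4 were. No test was made on these counts, and a match is a run of letters, not a shown binding site.

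The sequences below show the ISRE cores in capitals for the 3 called members with the highest changes among those that hold one in the table and reach an RPKM of 5 in both shM2-3 libraries, for the core that lies upstream of PARP9 and at the start of DTX3L, and for the IFI44L and IFI44 pair, which moved in opposite directions. All read 5′ to 3′ on the gene's strand and stop before the start of the gene named, and a core on the opposite strand reads TTTC, 2 free bases and TTTC. The windows are chr14:94110588-94110690 (plus strand) for IFI27, chr19:17405705-17405800 (minus) for BST2, chr10:89327801-89327924 (plus) for IFIT3, chr3:122564322-122564351 (minus) for PARP9, chr1:78620244-78620424 (plus) for IFI44L and chr1:78649731-78649788 (plus) for IFI44. IFI44L was added after the values were seen.
IFI27: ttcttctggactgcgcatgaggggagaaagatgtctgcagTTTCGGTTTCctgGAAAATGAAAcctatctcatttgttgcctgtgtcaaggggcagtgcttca
BST2: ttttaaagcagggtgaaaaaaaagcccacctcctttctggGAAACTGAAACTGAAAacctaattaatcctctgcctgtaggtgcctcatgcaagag
IFIT3: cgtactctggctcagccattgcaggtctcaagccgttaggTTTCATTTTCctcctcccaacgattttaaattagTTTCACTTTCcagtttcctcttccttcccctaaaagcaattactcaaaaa
PARP9: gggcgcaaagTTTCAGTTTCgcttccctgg
IFI44L: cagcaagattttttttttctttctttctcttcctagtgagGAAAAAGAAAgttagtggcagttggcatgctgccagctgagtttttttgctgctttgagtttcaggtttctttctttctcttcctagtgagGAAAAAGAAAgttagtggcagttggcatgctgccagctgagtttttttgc
IFI44: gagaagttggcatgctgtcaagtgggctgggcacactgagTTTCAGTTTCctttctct

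In BST2 the 2 cores start 6 bases apart and overlap, and a GAS core overlaps the first of them from base -136 to -128 before the start. In IFI27 the cores face each other, from -108 to -99 and from -95 to -86, with a GAS core from -101 to -93 that overlaps both. The IFI44L window is a direct repeat: a run of 75 bases occurs again 91 bases further on, and each copy holds 1 core. The PARP9 core lies from -41 to -32 before a PARP9 start and is the same stretch of chromosome that spans the DTX3L start on the other strand, from -6 to 4. IFI44, which had 26.2 and 27.4 RPKM under shCtl and 17.2 and 16.3 under shM2-3, carries its core at -18 to -9 from its first annotated start.

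**Figure D3:**
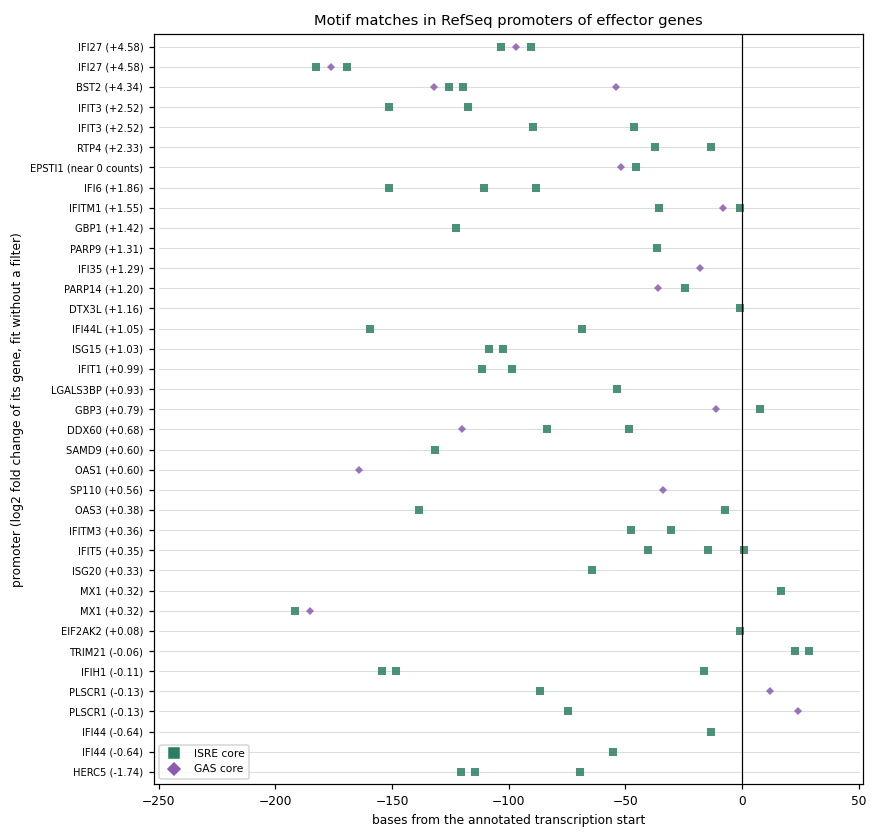
Positions of ISRE cores (squares) and GAS cores (diamonds) relative to the annotated start in 37 promoters of 32 members with a match, ordered by the log2 fold change of the gene in the fit without a filter. RSAD2 is not drawn. ISRE cores appear near the top (IFI27, BST2, IFIT3) and at the bottom (IFI44, HERC5) of the order.

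The IFIT genes encode RNA-binding proteins, of which IFIT1 recognizes foreign RNA caps and IFIT3 stabilizes IFIT1. All 4 rose, and 3 of 4 were called higher, where 9.24% of all tested genes were. IFIT2 entered the test through shM2-3 alone, its RPKM being under 1 in both shCtl libraries. IFIT2 had 0.704 and 0.977 RPKM under shCtl and 6.49 and 7.27 under shM2-3, and IFIT3 had 2.27 and 2.15 RPKM under shCtl and 12.2 and 12.5 under shM2-3. IFIT1 had 1.57 and 1.71 RPKM under shCtl and 3.18 and 3.17 under shM2-3. In each the shM2-3 libraries lay above the shCtl libraries with no overlap, as in 38.9% of all tested genes. The log2 fold changes were 3.09 ± 0.153 (SE) for IFIT2, 2.55 ± 0.103 (SE) for IFIT3 and 1.02 ± 0.122 (SE) for IFIT1. IFIT1 was barely past the limit: its log2 fold change was 0.98 with total counts in place of TMM scaling, 0.99 without the filter and 0.96 without shCtl replicate 1, each under the fold limit. IFIT5, the fourth of the family, had 4.35 and 4.81 RPKM under shCtl and 5.92 and 5.46 under shM2-3 and a log2 fold change of 0.38 ± 0.0936 (SE), under the fold limit. Their adjusted p ranged from 6.50e-11 for IFIT3 to 0.00239 for IFIT5 (edgeR quasi-likelihood F test, Benjamini-Hochberg adjustment).

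The IFITM proteins block the fusion of viral and cell membranes, IFITM1 mainly at the cell surface and IFITM2 and IFITM3 in endosomes, and BST2 (tetherin) holds budding virus on the membrane. IFITM1 rose from 16.8 and 16.02 RPKM in shCtl to 50.4 and 43.1 in shM2-3, a log2 fold change of 1.58 ± 0.102 (SE). IFITM2 went the other way, with 119 and 127 RPKM under shCtl and 75.6 and 74.5 under shM2-3, and fell by 0.65 on the log2 scale (SE 0.0538). IFITM3, the most abundant member in shCtl, had 163 and 174 RPKM under shCtl and 203 and 218 under shM2-3 and a log2 fold change of 0.39 ± 0.0520 (SE). Thus in the same libraries IFITM1 was higher, IFITM3 slightly higher and IFITM2 lower, each with no overlap between groups. Of all tested genes, 38.9% were higher and 47.1% lower in shM2-3 with no overlap. These genes are close paralogs, and since ambiguous reads were removed upstream, the split of reads between them is uncertain. BST2 had 10 and 21 counts under shCtl and 360 and 352 under shM2-3, or 0.426 and 0.881 RPKM under shCtl and 12.6 and 13.6 under shM2-3, so that both control libraries stayed under an RPKM of 1. Its log2 fold change was 4.37 ± 0.247 (SE), and 3.95 and 4.98 without shCtl replicate 1 and 2 in turn. The adjusted p of these 4 genes ranged from 2.29e-09 for BST2 to 1.48e-05 for IFITM3 (edgeR quasi-likelihood F test, Benjamini-Hochberg adjustment).

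The OAS enzymes make oligoadenylates on double-stranded RNA, which set off the decay of RNA, whereas OASL lacks this activity. OAS2 had 0.432 and 0.453 RPKM under shCtl and 1.31 and 1.52 under shM2-3, a log2 fold change of 1.74 ± 0.191 (SE), and was the only 1 of the family called in the filtered fit. Its value was 0.74 with limma on log2(RPKM + 1), under the fold limit. OAS3 had 2.998 and 2.95 RPKM under shCtl and 3.77 and 3.78 under shM2-3 and a log2 fold change of 0.41 ± 0.0849 (SE), higher but under the fold limit. Their adjusted p was 2.15e-06 and 6.86e-04 (edgeR quasi-likelihood F test, Benjamini-Hochberg adjustment). OAS1 and OASL stayed under an RPKM of 1 in each library. OAS1 had 44 and 37 counts under shCtl and 83 and 56 under shM2-3, a ratio of 1.55 (95% counting interval 1.17 to 2.07). OASL had 2 and 4 counts under shCtl and 17 and 15 under shM2-3, a ratio of 4.83 (95% counting interval 1.99 to 14.1). These ratios are of summed counts scaled to library size, and their intervals cover counting error only. In the fit without a filter OASL passed, with an adjusted p of 0.0363, and OAS1 did not, with 0.105 (edgeR quasi-likelihood F test).

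None of the 4 other genes of double-stranded RNA binding proteins was called, where 9.24% of all tested genes were called higher and 8.93% lower. ADAR, which edits adenosine to inosine in it, had 34.6 and 34.6 RPKM under shCtl and 54.1 and 53.2 under shM2-3 and a log2 fold change of 0.70 ± 0.0389 (SE). DDX60, a helicase, had 1.16 and 1.17 RPKM under shCtl and 1.86 and 1.78 under shM2-3 and a log2 fold change of 0.71 ± 0.137 (SE). Both were higher without reaching a fold change of 2. EIF2AK2 (PKR), the kinase that stops translation, had 11.1 and 10.7 RPKM under shCtl and 10.9 and 11.5 under shM2-3, with overlapping groups and a log2 fold change of 0.11 ± 0.0496 (SE). IFIH1 (MDA5), a cytosolic sensor, had 2.82 and 2.46 RPKM under shCtl and 2.35 and 2.44 under shM2-3 and a log2 fold change of -0.08 ± 0.142 (SE). The adjusted p was 1.93e-09 for ADAR, 3.90e-04 for DDX60, 0.0643 for EIF2AK2 and 0.646 for IFIH1 (edgeR quasi-likelihood F test, Benjamini-Hochberg adjustment).

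Among the GTPases, guanylate-binding proteins that attack vacuoles and membranes of pathogens rose. GBP2 had 2.38 and 2.22 RPKM under shCtl and 10.5 and 10.02 under shM2-3, a log2 fold change of 2.22 ± 0.0886 (SE). GBP1 had 1.44 and 1.41 RPKM under shCtl and 3.64 and 3.84 under shM2-3, a log2 fold change of 1.46 ± 0.158 (SE). GBP3 had 0.747 and 0.772 RPKM under shCtl and 1.37 and 1.20 under shM2-3 and a log2 fold change of 0.82 ± 0.236 (SE), higher but not called. The adjusted p was 5.80e-11, 1.88e-06 and 0.00662 in this order (edgeR quasi-likelihood F test, Benjamini-Hochberg adjustment). GBP genes are close paralogs, and their reads could be split between them. The dynamin-like MX1 and MX2 block the nucleocapsids of viruses, and MX1 is a widely used readout of type I interferon. MX1 had 14 and 10 counts under shCtl and 21 and 13 under shM2-3, a ratio of 1.28 (95% counting interval 0.739 to 2.26), so that no difference was detectable at this depth. MX2 had 2 and 0 counts under shCtl and 18 and 21 under shM2-3, a ratio of 17.7 (95% counting interval 4.57 to 151). Neither reached an RPKM of 1, and in the fit without a filter the adjusted p was 0.713 for MX1 and 5.44e-04 for MX2 (edgeR quasi-likelihood F test).

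The ubiquitin-like modifiers and their enzymes did not move together. UBD (FAT10), which marks proteins for the proteasome, had 0 and 6 counts under shCtl and 388 and 388 under shM2-3, a ratio of 117 (95% counting interval 53.6 to 320.3) and a log2 fold change of 6.82 ± 0.376 (SE). Control reads came from shCtl replicate 2 alone, and the log2 fold change was 5.86 without shCtl replicate 1 and 11.55 without shCtl replicate 2, the latter against a library at 0 counts, where the fitted value depends on the prior count. In the annotation 93.5% of UBD's exon bases also lie in exons of OR2I1P, and GABBR1 overlaps as well. Libraries without strand do not separate them. OR2I1P had no row, so its level could not be read. The GABBR1 counts were 772 and 797 under shCtl and 1030 and 791 under shM2-3, a log2 fold change of 0.07. ISG15, the modifier that gives ISGylation its name, had 6.24 and 5.28 RPKM under shCtl and 10.2 and 12.8 under shM2-3 and a log2 fold change of 1.06 ± 0.201 (SE). This call was close to the limit: the value was 0.93 without shCtl replicate 2 and 0.88 without shM2-3 replicate 2, both under it. USP18, which removes ISG15 and restrains the receptor IFNAR2, had 3.43 and 2.99 RPKM under shCtl and 2.11 and 2.24 under shM2-3 and fell by 0.49 on the log2 scale (SE 0.194). HERC6 had 2.09 and 1.69 RPKM under shCtl and 1.11 and 1.51 under shM2-3 and fell by 0.47 (SE 0.198). The adjusted p was 1.77e-09 for UBD, 3.35e-04 for ISG15, 0.0347 for USP18 and 0.0485 for HERC6 (edgeR quasi-likelihood F test, Benjamini-Hochberg adjustment). With DESeq2, USP18 and HERC6 did not pass, at an adjusted p of 0.104 and 0.111. Nor did they in edgeR without shCtl replicate 1 (adjusted p of 0.195 for USP18 and 0.275 for HERC6) or without shM2-3 replicate 1 (0.136 and 0.338), and USP18 did not without shM2-3 replicate 2 (0.0710). HERC5, the main ligase of ISG15 in human cells, had 62 and 55 counts under shCtl and 12 and 27 under shM2-3, a ratio of 0.302 (95% counting interval 0.205 to 0.437). Its RPKM stayed under 1, and in the fit without a filter it was the member called lower (adjusted p = 2.37e-05 in edgeR). The groups of ISG15, HERC5, HERC6 and USP18 did not overlap in RPKM, ISG15 being higher and the other 3 lower. Of all genes, 33.2% were higher and 36.4% lower in shM2-3 without overlap.

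PARP9 and DTX3L form a complex that joins ADP-ribosylation to ubiquitin transfer, and PARP14 is a related ADP-ribosyltransferase. All 3 were called higher by similar amounts, where 9.24% of all tested genes were called higher. PARP9 had 1.73 and 1.71 RPKM under shCtl and 4.37 and 3.97 under shM2-3, a log2 fold change of 1.34 ± 0.0889 (SE). DTX3L had 6.48 and 6.41 RPKM under shCtl and 14.3 and 13.8 under shM2-3, a log2 fold change of 1.19 ± 0.0571 (SE). PARP14 had 5.05 and 5.29 RPKM under shCtl and 11.5 and 11.6 under shM2-3, a log2 fold change of 1.23 ± 0.0556 (SE). In each the replicates lay close together and the groups did not overlap, shM2-3 being higher, as in 38.9% of all tested genes. PARP9 and DTX3L lie head to head on opposite strands, and PARP9 stood at 26.7% and 26.7% in shCtl and 30.5% and 28.8% in shM2-3 of the DTX3L RPKM. SAMD9 and SAMD9L, paralogs that restrict poxviruses and translation, both rose. SAMD9L had 2.80 and 2.47 RPKM under shCtl and 7.45 and 6.17 under shM2-3, a log2 fold change of 1.44 ± 0.0970 (SE). SAMD9 had 6.11 and 5.54 RPKM under shCtl and 9.76 and 7.48 under shM2-3, with shM2-3 replicate 1 above replicate 2, and a log2 fold change of 0.63 ± 0.1003 (SE), under the fold limit. The adjusted p of these 5 genes ranged from 2.28e-10 for PARP14 to 6.97e-05 for SAMD9 (edgeR quasi-likelihood F test, Benjamini-Hochberg adjustment).

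Of the enzymes that act on nucleotides and RNA, CMPK2 had 0 and 2 counts under shCtl and 0 and 0 under shM2-3, near 0 in all libraries. A count of 3 is the floor used here, and no fold change is given for it. ISG20, an exonuclease, had 1.48 and 1.51 RPKM under shCtl and 1.84 and 1.83 under shM2-3, a log2 fold change of 0.36 ± 0.166 (SE) that did not pass (adjusted p = 0.0672, edgeR quasi-likelihood F test, Benjamini-Hochberg adjustment). The tripartite motif and nuclear body genes moved by less than 2-fold where they were tested. PML, the scaffold of PML nuclear bodies, had 5.56 and 6.23 RPKM under shCtl and 6.71 and 7.67 under shM2-3 and a log2 fold change of 0.35 ± 0.0786 (SE). SP110, another nuclear body protein, had 1.93 and 2.60 RPKM under shCtl and 3.37 and 3.15 under shM2-3 and a log2 fold change of 0.59 ± 0.137 (SE). TRIM21, the cytosolic antibody receptor, had 8.47 and 7.98 RPKM under shCtl and 7.87 and 7.51 under shM2-3 and a log2 fold change of -0.03 ± 0.103 (SE). PML and SP110 passed and TRIM21 did not, with an adjusted p of 0.00122, 0.00160 and 0.797 (edgeR quasi-likelihood F test, Benjamini-Hochberg adjustment). TRIM22, an antiviral ubiquitin ligase, had 2 and 4 counts under shCtl and 34 and 55 under shM2-3, a ratio of 13.4 (95% counting interval 5.94 to 37.6), and stayed under an RPKM of 1. In the fit without a filter its adjusted p was 1.97e-08 (edgeR quasi-likelihood F test).

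Of the remaining members 11 were tested and 7 were called higher, where 9.24% of all tested genes were. XAF1, IFI27, APOL1 and RTP4 had an RPKM above 1 in shM2-3 alone. XAF1, a partner of the apoptosis inhibitor XIAP, had 3 and 4 counts under shCtl and 187 and 140 under shM2-3, a ratio of 42.3 (95% counting interval 20.3 to 106) and a log2 fold change of 5.35 ± 0.388 (SE). In the annotation 38.3% of its exon bases also lie in exons of PRAL, which had no row. IFI27, a small membrane protein, had 8 and 2 counts under shCtl and 142 and 134 under shM2-3, and its log2 fold change was 4.61 ± 0.431 (SE), with 5.90 and 3.93 without shCtl replicate 1 and 2. IFI6, of the same family of small hydrophobic proteins but far more abundant, had 13.3 and 14.4 RPKM under shCtl and 50.6 and 47.0 under shM2-3, a log2 fold change of 1.89 ± 0.0876 (SE). The groups did not overlap for any of these 3, shM2-3 being higher, as in 38.9% of all tested genes. APOL1, the trypanosome lytic factor of serum, had 0.210 and 0.192 RPKM under shCtl and 2.11 and 2.36 under shM2-3, a log2 fold change of 3.53 ± 0.276 (SE). RTP4, a chaperone of receptors, had 14 and 5 counts under shCtl and 61 and 48 under shM2-3, a log2 fold change of 2.36 ± 0.503 (SE), with 3.28 without shCtl replicate 1 and 1.79 without shCtl replicate 2. Its shCtl replicate 1 was higher than replicate 2. IFI35 had 2.77 and 3.36 RPKM under shCtl and 6.58 and 8.08 under shM2-3, a log2 fold change of 1.32 ± 0.191 (SE). IFI44L had 1.74 and 1.97 RPKM under shCtl and 3.74 and 3.75 under shM2-3, a log2 fold change of 1.08 ± 0.104 (SE), and 0.996 without shCtl replicate 1. The adjusted p of these 7 ranged from 2.90e-10 for IFI6 to 8.55e-04 for RTP4 (edgeR quasi-likelihood F test, Benjamini-Hochberg adjustment). LGALS3BP, a secreted galectin-binding glycoprotein and the most abundant member in shM2-3, had 126 and 132 RPKM under shCtl and 239.9 and 240.1 under shM2-3 and a log2 fold change of 0.96 ± 0.0401 (SE), just short of the fold limit. APOL2 had 4.08 and 3.92 RPKM under shCtl and 6.28 and 5.26 under shM2-3 and a log2 fold change of 0.59 ± 0.121 (SE). IFI44, in contrast, fell by 0.61 (SE 0.0690). PLSCR1, a phospholipid scramblase, had 13.3 and 14.7 RPKM under shCtl and 12.8 and 12.1 under shM2-3 and a log2 fold change of -0.10 ± 0.0837 (SE). The adjusted p was 9.59e-11, 6.09e-04, 2.80e-06 and 0.288 in this order (edgeR quasi-likelihood F test, Benjamini-Hochberg adjustment). EPSTI1 had 0 and 0 counts under shCtl and 1 and 0 under shM2-3.

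Many members lie side by side in the genome. The list names gene families, such as IFIT, IFITM, OAS and GBP, so that clusters follow in part from its choice. Within 150 kb of each other, 26 of the members formed 10 clusters on hg38 in the GENCODE release 44 annotation. In the cluster on chromosome 11 (303655 to 329475) IFITM1 stood at 14.2% and 12.6% in shCtl and 66.8% and 57.9% in shM2-3 of the IFITM2 RPKM. In the IFI44L and IFI44 pair on chromosome 1 (78619902 to 78664078) IFI44L stood at 6.63% and 7.17% in shCtl and 21.8% and 22.9% in shM2-3 of the IFI44 RPKM. In both pairs the ratio was higher in both shM2-3 libraries, with 1 gene rising and its neighbour falling. On chromosome 22 (36226209 to 36267530) APOL1 stood at 5.13% and 4.90% in shCtl and 33.6% and 44.9% in shM2-3 of APOL2. On chromosome 10 (89283694 to 89421605) IFIT3 stood at 52.3% and 44.8% in shCtl and 207% and 229% in shM2-3 of IFIT5. On chromosome 7 (93099513 to 93148385) SAMD9L stood at 45.8% and 44.6% in shCtl and 76.3% and 82.5% in shM2-3 of SAMD9. In these 3 clusters the neighbours rose together but by different amounts. On chromosome 12 (112905856 to 113011723) OAS2 stood at 14.4% and 15.3% in shCtl and 34.6% and 40.3% in shM2-3 of OAS3. The cluster on chromosome 1 from 89006679 to 89150456 holds GBP3, GBP1 and GBP2, and GBP2 rose most of the 3. HERC6 and HERC5 on chromosome 4 (88378739 to 88506163) were both lower in shM2-3. MX2 and MX1 lie on chromosome 21 (41361999 to 41470071), and PARP9, DTX3L and PARP14 on chromosome 3 (122527924 to 122730840). No test was made of the differences between neighbours.

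**Figure D4:**
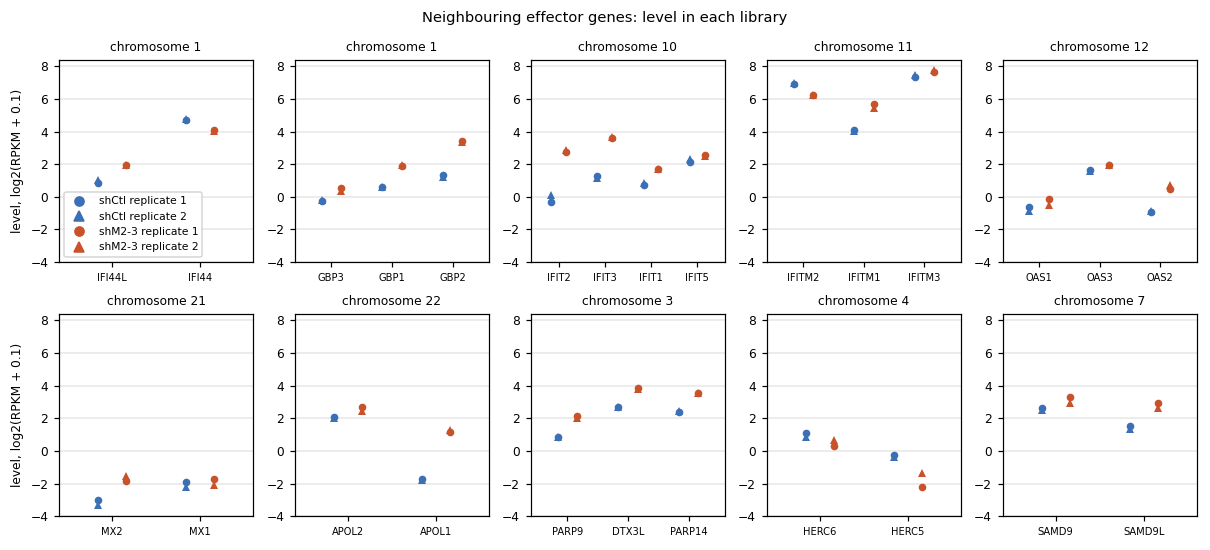
Level of the 26 clustered members in each library as log2(RPKM + 0.1), 1 panel for each of the 10 clusters, in chromosome order within a panel. IFITM1 and IFITM2, and IFI44L and IFI44, move in opposite directions, while PARP9, DTX3L and PARP14 shift alike.

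The genes upstream of the effectors were read from a list of 40, of which 33 had a row and 26 were tested. Of these 26, 7 were called higher (9.24% of all tested genes) and 0 lower (8.93%), and 18 were higher (36.3%) and 3 lower (36.4%) without the fold limit (edgeR quasi-likelihood F test). Of the 7, SOCS1 and TLR3 had an RPKM above 1 in shM2-3 alone, so that they entered the test through the group in which they were high. The other 5 called genes were among the 24 that passed in both groups. DESeq2 also called 0 lower, and the 3 lower genes were those at an unadjusted p under 0.05. Of 9 interferon genes, IFNE had 4 and 11 counts under shCtl and 38 and 25 under shM2-3. IFNL1 had 0 and 0 counts under shCtl and 0 and 6 under shM2-3. Both stayed under an RPKM of 1, and the other 7, IFNB1 and IFNG among them, were not analysed here. In the fit without a filter IFNE was called higher, with a log2 fold change of 1.88 (adjusted p = 0.00376, edgeR quasi-likelihood F test), and IFNL1 was not called. Of the receptor chains and kinases, IFNGR2 had 18.7 and 18.3 RPKM under shCtl and 49.97 and 47.7 under shM2-3, a log2 fold change of 1.47 ± 0.0524 (SE). IFNAR1 had 4.65 and 4.41 RPKM under shCtl and 9.42 and 9.23 under shM2-3, a log2 fold change of 1.11 ± 0.0670 (SE). Both were called, on the side of the interferon gamma and of the type I interferon receptor respectively, and IFNAR1 was under the fold limit with limma on log2(RPKM + 1), at 0.90. IFNGR1 had a log2 fold change of 0.77 ± 0.0661 (SE) and TYK2 of 0.55 ± 0.0540 (SE), under the fold limit, while IFNAR2, IL10RB, JAK1 and JAK2 did not pass, with log2 fold changes between -0.05 and 0.16. IFNLR1, of the interferon lambda receptor, had 0 and 1 counts under shCtl and 4 and 3 under shM2-3. Among these genes the adjusted p was 1.90e-11 for IFNGR2 and 4.62e-09 for IFNAR1 (edgeR quasi-likelihood F test, Benjamini-Hochberg adjustment).

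Of the 7 factors that switch the effectors on, 2 were called higher, where 9.24% of all tested genes were. Without the fold limit 7 were higher at an adjusted p up to 0.05 in edgeR, where 36.3% of all tested genes were. IRF9 had 7.22 and 8.39 RPKM under shCtl and 17.2 and 19.1 under shM2-3, a log2 fold change of 1.28 ± 0.103 (SE), and IRF1 had 3.15 and 3.35 RPKM under shCtl and 14.7 and 14.1 under shM2-3, a log2 fold change of 2.21 ± 0.0744 (SE), and these 2 were called. STAT2 had 14.9 and 15.4 RPKM under shCtl and 18.6 and 18.7 under shM2-3 and a log2 fold change of 0.36 ± 0.0507 (SE), under the fold limit. Among the factors the adjusted p ran from 9.84e-12 for IRF1 to 0.0457 for IRF7 (edgeR quasi-likelihood F test, Benjamini-Hochberg adjustment). IRF2, IRF3 and IRF7 did not pass in each fit. With DESeq2 the adjusted p was 0.0672 for IRF3 and 0.138 for IRF7. Leaving out shM2-3 replicate 2 gave an adjusted p of 0.183 for IRF2 in edgeR, and leaving out shCtl replicate 1 gave 0.121 for IRF3 and 0.229 for IRF7. Without shM2-3 replicate 1 the adjusted p from edgeR was 0.149 for IRF3 and 0.116 for IRF7, and without shM2-3 replicate 2 it was 0.109 for IRF7. Of the sensors and adaptors, TLR3, the endosomal receptor of double-stranded RNA, had 13 and 11 counts under shCtl and 108 and 77 under shM2-3, a log2 fold change of 2.79 ± 0.377 (SE), and IKBKE had 2.65 and 2.18 RPKM under shCtl and 6.38 and 7.27 under shM2-3, a log2 fold change of 1.57 ± 0.126 (SE). With limma on log2(RPKM + 1) the value of TLR3 was 0.85, and without shM2-3 replicate 1 it fell under the RPKM filter. STING1, the adaptor of the DNA sensing pathway, had 16.1 and 18.7 RPKM under shCtl and 9.57 and 8.29 under shM2-3 and fell by 0.89 on the log2 scale (SE 0.0947), and the DNA sensor CGAS had 1 and 2 counts under shCtl and 1 and 1 under shM2-3. RIGI rose by 0.39 and MAVS by 0.41. Of the brakes, SOCS1 had 6 and 19 counts under shCtl and 236 and 198 under shM2-3, a log2 fold change of 3.96 ± 0.327 (SE), with 3.37 and 4.99 without shCtl replicate 1 and 2. SOCS3 had 20.1 and 21.0 RPKM under shCtl and 12.6 and 11.98 under shM2-3 and fell by 0.68, and PTPN2 fell by 0.69. The adjusted p of TLR3, IKBKE, STING1, RIGI, MAVS, SOCS1, SOCS3 and PTPN2 ranged from 9.14e-08 for IKBKE to 3.61e-04 for RIGI (edgeR quasi-likelihood F test, Benjamini-Hochberg adjustment).

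**Figure D5:**
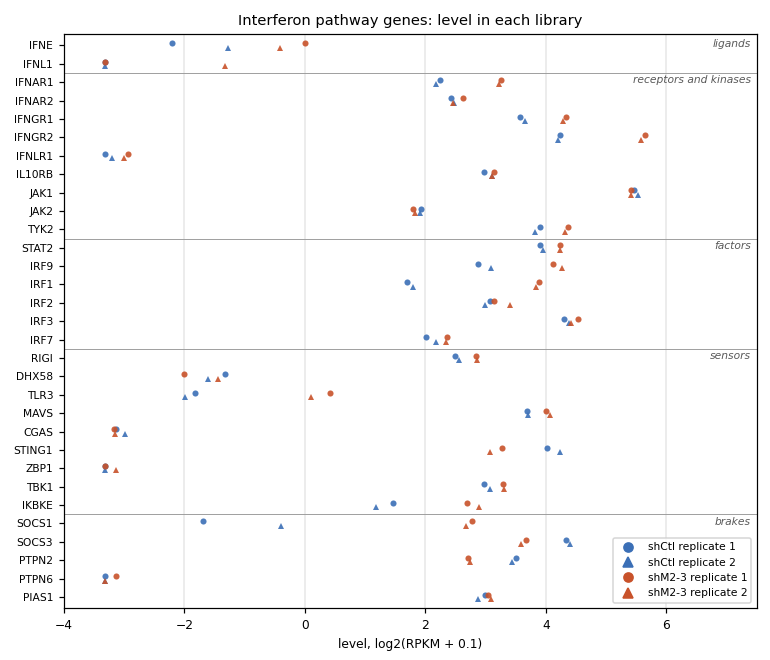
Level of 31 interferon pathway genes in each library, as log2(RPKM + 0.1), grouped from ligands to brakes. SOCS1, TLR3 and IRF1 lie higher in both shM2-3 libraries, STING1, SOCS3 and PTPN2 lower, and JAK1 and JAK2 close together.

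Markers of leukocytes were read in the same libraries. The summed RPKM of the 5 markers with a row was between 0.603 and 1.06 in shCtl and between 3.02 and 5.14 in shM2-3. PTPRC (CD45), the marker of all leukocytes, had 3 and 0 counts under shCtl and 2 and 2 under shM2-3, and CD3E had 0 and 0 counts under shCtl and 1 and 0 under shM2-3. CSF1R had 2 and 8 counts under shCtl and 230 and 223 under shM2-3, CD14 had 3 and 4 counts under shCtl and 42 and 37 under shM2-3 and LYZ had 33 and 15 counts under shCtl and 100 and 5 under shM2-3. CSF1R and CD14 were higher in both shM2-3 libraries, and PTPRC was near 0 in all 4. Of the 6 fibroblast markers PDGFRB had 0.482 and 0.662 RPKM under shCtl and 1.20 and 1.37 under shM2-3, the other 5 stayed under an RPKM of 0.5, and the summed level was between 0.91 and 1.10 in shCtl and between 1.66 and 1.72 in shM2-3. The part of other cells in the effector changes was not tested beyond these levels.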

How the data were processed

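RNA-seq libraries of ES-2 cells with shCtl (n = 2) or shM2-3 (n = 2) were analysed, with groups and replicate numbers taken from the labels. The authors aligned reads to hg38 with HISAT2 2.0.4, removed ambiguous reads and reads of low mapping quality, and quantified RefSeq transcripts in Partek 7.18. Their deposited estimated counts carry no normalization and are only in part whole (42.6% to 48.8% of values by library, to within 1e-06). In the deposited RPKM table the same counts are scaled to transcript length and to mapped reads. The effector list and the lists of pathway genes and cell markers were chosen with earlier results of these data known.

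After rounding, the main test was the quasi-likelihood F test of edgeR 4.0.16 (R 4.3.3) with TMM scaling and no block, Benjamini-Hochberg adjusted over the 12157 genes whose RPKM passed 1 in any library. The standard error is the log2 fold change divided by the square root of F. Calls needed an adjusted p up to 0.05 and at least a 2-fold change. On simulated counts for this comparison over 12157 genes, 97 of 100 genes changed by 1.5 and 99 of 100 changed by 2 on the log2 scale were recovered, and 3 unchanged genes were called. Only 200 genes were changed and no change under 1.5 was simulated, so recovery near the fold limit was not measured. Alternatives were RLE factors, total counts, DESeq2 1.42.0, the likelihood ratio test, limma 3.58.1 on log2(RPKM + 0.1) and log2(RPKM + 1), no filter, filterByExpr, a fold limit of 1.5, leaving out each library and a replicate block.

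Replicates were distinct libraries: their counts differed by 3.51 (shCtl) and 4.09 (shM2-3) times what sampling alone gives, as chi-square per degree of freedom. The labels call them biological replicates and do not say whether they came from separate cultures, so p-values measure the spread between these libraries, which may be technical. Ratios of summed counts have exact (Clopper-Pearson) 95% intervals. Locations and exon overlaps are from GENCODE release 44, on the same build as the files, and promoters from RefSeq on GRCh38.p14, which held 39 of the 50 members. RIGI is listed as DDX58 in the files. Every member is accounted for. By rule called members and chromosome neighbours are given by library, and the others were given so as well. Of the pathway list, genes that were called, STAT2, IRF9, ligands and receptors are named, and others were named after their values were seen. Protein sequences were not used here, and a few genes of the pathway and marker lists enter the counts and sums but are not reported here singly.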

Additional observations from a re-analysis of the deposited data

How the results depend on the processing

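The 21 calls of higher members became 20 with total counts, 18 and 14 with limma on log2(RPKM + 0.1) and log2(RPKM + 1), 23 with no filter, 24 with filterByExpr and 28 at a fold limit of 1.5, and stayed 21 with DESeq2, RLE factors and the likelihood ratio test. Of the 21, 14 were called in all 14 fits. Under the fold limit with limma on log2(RPKM + 1) were IFIT1, ISG15, IFI44L, OAS2 (0.74), GBP1 (0.97), PARP9 (0.92) and RTP4 (0.88). Without 1 library the count was between 19 and 21, and 18 were called in each of the 4 such fits. The count of members called lower was 1 with no filter, 1 with filterByExpr (HERC5, which the RPKM filter removes) and 2 at a fold limit of 1.5. The count of members lower at an adjusted p of 0.05 or less was 2 with DESeq2 and between 2 and 4 without 1 library. The median log2 fold change was 0.98 with total counts, 0.91 and 0.74 on the 2 limma scales, 0.99 with no filter and between 0.96 and 1.03 without 1 library. Pathway genes called lower were 3 at a fold limit of 1.5, and those called higher fell from 7 to 5 with limma on log2(RPKM + 1), where IFNAR1 (0.90) and TLR3 (0.85) were under the fold limit. Pathway genes called higher were 8 with no filter and with filterByExpr. With total counts the adjusted p was 0.0553 for IRF3 and 0.0724 for IRF7 in edgeR. The added pseudocount shrinks the change of low genes, and the cause of the other shifts was not tested. Without 1 library the log2 fold changes of IFIH1 (-0.18 to 0.0280), TRIM21 (-0.0794 to 0.0134) and JAK1 (-0.0498 to 0.00508) changed sign, and none of these passed in the main test.

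Replicate numbers are shared between the groups, and the labels do not say whether they pair the cultures. The differences between replicates 1 and 2 correlated at -0.0287 across genes. With 1 difference per group this cannot exclude pairing, so a replicate block was fitted as an alternative. With the replicate block 21 members were called higher and 0 lower, and 2 rather than 4 were lower at an adjusted p of 0.05 or less, HERC6 (0.0704) and USP18 (0.0509) no longer passing in edgeR, nor the factor IRF7 (0.0603). With at most 21 counts in a control library, UBD, XAF1, IFI27, RTP4, APOL1 and BST2 carry counting error in the control level, which limits the precision of their fold changes.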
